A study of Mus musculus with 48 samples.

Results

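The 10 transcripts examined here mark classes of cortical interneurons. They are the precursors of the neuropeptides somatostatin (*Sst*), vasoactive intestinal peptide (*Vip*), neuropeptide Y (*Npy*), cholecystokinin (*Cck*), the tachykinins (*Tac1*), corticotropin-releasing hormone (*Crh*), the enkephalins (*Penk*), the dynorphins (*Pdyn*) and cortistatin (*Cort*), and the calcium-binding protein parvalbumin (*Pvalb*). The genes were chosen by name and matched through their Ensembl identifiers, and all 10 of 10 were found among the 48526 genes counted. The libraries came from the cerebral cortex of wild-type male C57BL/6JRj mice without any treatment, 4 mice at 3 weeks (3w; mice 187 to 190), 4 at 5 months (5m; 191 to 194) and 4 at 18 months (18m; 195 to 198). The age field of the labels gives 6 months for the middle group, whereas the labels' protocol gives 5 months and, for the oldest group, up to 19 months. Each of the 12 mice gave 4 libraries: RNA of the total homogenate (input_TH), RNA pelleted with ribosomes through a sucrose cushion from the homogenate (SC_TH), and the same pair from synaptosomes (input_SYN and SC_SYN). Synaptosomes are pinched-off nerve endings with attached postsynaptic membrane, collected here from a sucrose gradient interface, and that interface is a fraction and not a purified compartment. The study defines the translational efficiency (TE) of synapses as SC_SYN over SC_TH and that within a compartment as SC over input.

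A neuropeptide is made as a longer precursor that begins with a signal peptide, enters the endoplasmic reticulum, is cut by prohormone convertases and is stored in dense core vesicles. Most cortical interneurons that use GABA carry one or more of these peptides: somatostatin and parvalbumin mark largely separate classes that arise in the medial ganglionic eminence, and VIP marks a class that arises in the caudal ganglionic eminence. *Cck*, *Penk*, *Pdyn* and *Tac1* are not restricted to interneurons, since *Cck* is made by many cortical pyramidal cells and the other 3 are abundant in the projection neurons of the striatum. Parvalbumin differs from the other 9 in that it is a soluble protein made in the cytosol, without a signal peptide.

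The start of the coding sequence encodes the signal peptide of a precursor, and is shown for 6 of the 10. It was chosen after *Pvalb* was seen to go opposite to the precursors in the comparison of synaptosomes with homogenate. Its part in that comparison was not tested. The first 25 codons are given from the GENCODE M21 transcripts (GRCm38), 5′ to 3′, with codons that have T as their middle base in capitals. Such codons encode Phe, Leu, Ile, Met or Val, the hydrophobic residues of which the core of a signal peptide is made.
Sst-201: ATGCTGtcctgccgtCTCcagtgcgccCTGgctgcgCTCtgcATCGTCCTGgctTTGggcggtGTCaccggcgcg
Npy-201: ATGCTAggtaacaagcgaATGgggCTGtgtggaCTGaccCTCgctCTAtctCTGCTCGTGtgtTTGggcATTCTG
Cck-204: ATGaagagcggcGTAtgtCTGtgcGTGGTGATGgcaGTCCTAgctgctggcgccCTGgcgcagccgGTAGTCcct
Penk-201: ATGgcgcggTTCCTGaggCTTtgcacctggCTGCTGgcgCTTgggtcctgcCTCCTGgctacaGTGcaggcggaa
Cort-201: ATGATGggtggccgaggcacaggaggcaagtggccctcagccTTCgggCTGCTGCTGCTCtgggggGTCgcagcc
Pvalb-201: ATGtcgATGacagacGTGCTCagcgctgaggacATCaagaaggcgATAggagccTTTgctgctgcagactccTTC
The share of such codons was 52% in *Npy* and *Tac1*, 48% in *Vip* and *Crh*, 44% in *Cck* and *Pdyn*, and 40% in *Sst* and *Penk*. It was 32% in both *Pvalb* and *Cort*, against a median of 28% over 21277 mouse coding genes. The share alone thus did not separate *Pvalb* from all the precursors. In *Cort* most of the capitals lie together in the later part of the window, whereas in *Pvalb* they are spread along it.

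*Sst* and *Cort* encode related peptides, and the 42 bases that code for the 14-residue core of somatostatin and the matching stretch of cortistatin are printed with identical positions in capitals.
Sst: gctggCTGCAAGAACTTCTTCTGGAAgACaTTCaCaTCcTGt
Cort: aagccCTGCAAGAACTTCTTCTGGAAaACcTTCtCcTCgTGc
Of these bases 31 (73.8%) were identical, and the longest run that the 2 coding sequences shared was 21 bases. *Penk* and *Pdyn* both code for enkephalin copies. *Penk* holds 6 copies of Met-enkephalin, such as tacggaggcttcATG at codon 100, and 1 of Leu-enkephalin (tatgggggcttcCTG), and *Pdyn* holds 3 of Leu-enkephalin, such as tatggcggctttTTG, where the capitals mark the codon that sets the 2 forms apart.

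None of the 10 transcripts was at 0 in any library, and their counts ran from 6 (*Cort*) to 10035 (*Cck*). In GRCm38 they lie at chr16:23889573-23890958 (*Sst*), chr10:5639218-5647617 (*Vip*), chr6:49822710-49829507 (*Npy*), chr9:121489824-121495694 (*Cck*), chr15:78191114-78206400 (*Pvalb*), chr6:7554879-7565834 (*Tac1*), chr3:19693401-19695396 (*Crh*), chr4:4133531-4138819 (*Penk*), chr2:129686565-129699844 (*Pdyn*) and chr4:149125034-149126763 (*Cort*). The counting did not use strand, and of the 10 only *Penk* shares exonic bases with another gene, the antisense transcript *A830012C17Rik*, which had 121 counts against 85697 for *Penk*. Library totals ran from 1780267 to 18590040 counts. They were not balanced over the groups, with medians in SC_TH of 4448523 at 3w, 8643431 at 5m and 12328632 at 18m. Markers of cortical glutamatergic neurons were detected in every group, with a summed level over 6 genes of 929 to 4703 CPM (counts scaled to the same library size, with TMM factors over all libraries), and so were markers of striatal projection neurons, with 603 to 1506 CPM over 9 genes. In SC_SYN the first principal component held 38.3% of the variance. A cut at scores above 0.2, with none at the other end, set 4 libraries apart. They were those of mice 188 (0.59), 189 (0.31), 195 (0.23) and 198 (0.33). Scores at the other end reached -0.35 (mouse 191) and -0.31 (mouse 193), so that the 4 are an end of the range of scores. In input_SYN, mice 189 (0.56) and 197 (0.49) also passed 0.2 and were kept. The counts and ranges of the comparisons with SC_SYN are also given without the 4 SC_SYN libraries set apart. That leaves mice 187 and 190 at 3w, all mice at 5m, and mice 196 and 197 at 18m. All values are from bulk RNA, in which fewer cells of a type and less RNA per cell cannot be told apart.

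**Figure D1:**
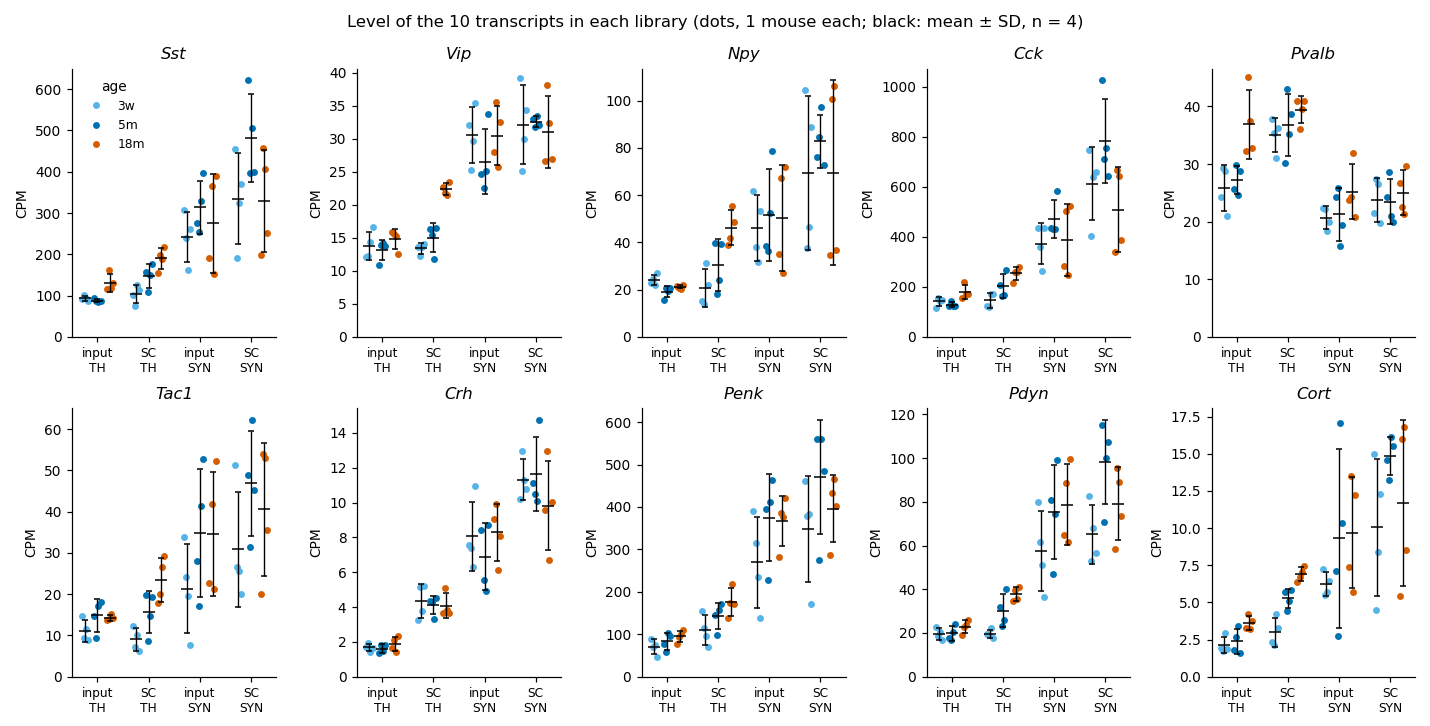
Level of each of the 10 transcripts (y axis, TMM-scaled CPM, linear and starting at 0) in the 4 fractions (x axis) at 3w, 5m and 18m; each dot is the library of 1 mouse, and black bars give mean ± SD over 4 mice. The 9 peptide precursors stand higher in the synaptosome fractions than in the homogenate fractions, while *Pvalb* stands lower there, and SC_TH steps up with age for most of the precursors.

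Compared per kilobase of exonic sequence, the order of the levels at 5m was nearly the same in all fractions. In input_TH, *Sst* led with a mean of 121.9 CPM per kb, followed by *Cck* (98.2), *Penk* (51.0), *Npy* (33.9) and *Pvalb* (26.2). *Pdyn* (6.85), *Tac1* (4.38), *Vip* (3.87), *Cort* (3.499) and *Crh* (1.22) stood lower. The ranges over 4 mice overlapped between *Penk* and *Npy*, between *Npy* and *Pvalb*, and from *Tac1* through *Vip* to *Cort*. For these neighbours the ranges alone do not settle the order. Transcripts of the same library were not compared mouse by mouse. In SC_SYN the means per kb were 668 for *Sst* and 599.8 for *Cck*, whose ranges overlapped, then 288 for *Penk*, 146 for *Npy*, 34.1 for *Pdyn*, 22.6 for *Pvalb* and 22.0 for *Cort*. *Pvalb* thus ranked ahead of *Pdyn* in input_TH and behind it in SC_SYN, although their ranges overlapped in SC_SYN. The exonic lengths of *Vip*, *Tac1* and *Cck* (3402, 3399 and 1305 bases) are much longer than their main coding transcripts (1530, 1230 and 799 bases). That lowers their level per kb, whereas both lengths are 721 bases for *Sst*. The order of *Sst* and *Cck* thus depends on the length used.

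The first comparison asked which of these transcripts stood higher in the ribosome pellet of synaptosomes than in that of the homogenate. At 5m, *Cck* stood at 207, 164, 167 and 269 CPM in SC_TH (mice 191 to 194) and at 1026, 709, 754 and 642 CPM in SC_SYN. *Sst* stood at 157, 108, 149 and 176 CPM in SC_TH and at 623, 398, 507 and 399 CPM in SC_SYN. For both transcripts the lowest SC_SYN library was above the highest SC_TH library. The log2 fold change was 1.98 ± 0.22 (SE) for *Cck* (edgeR quasi-likelihood test, adjusted p = 2.5e-08) and 1.72 ± 0.25 for *Sst* (adjusted p = 1.2e-06). *Pvalb* went the other way, with 30.2, 43.1, 35.1 and 38.7 CPM in SC_TH and 24.3, 28.6, 21.1 and 19.97 CPM in SC_SYN. Here too the groups did not overlap, and the log2 fold change was -0.62 ± 0.14 (adjusted p = 0.00030).

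All 9 peptide precursors were higher in SC_SYN than in SC_TH at 3w and at 5m, against 31.1% and 32.1% of the 16630 genes tested that were called higher at those ages. The precursors differed by log2 1.32 (*Vip*) to 2.12 (*Cck*) at 3w and by 1.14 (*Vip*) to 1.98 (*Cck*) at 5m. At 18m, 8 of 9 were called higher, against 29.9% of all genes, with values from 0.51 ± 0.13 (*Vip*) to 1.31 ± 0.19 (*Crh*). The exception was *Npy*, with 38.9, 41.8, 55.6 and 48.4 CPM in SC_TH and 34.6, 100.8, 106 and 36.7 CPM in SC_SYN at 18m. Its SC_SYN libraries thus fell into a high and a low pair, and the log2 fold change was 0.63 ± 0.33 (adjusted p = 0.099). The low pair were mice 195 and 198, both among the 4 libraries set apart. *Pvalb* was lower in SC_SYN at all 3 ages, by -0.51 ± 0.14, -0.62 ± 0.14 and -0.64 ± 0.14 on the log2 scale, where 32.4%, 35.8% and 32.2% of all genes were called lower. Taken mouse by mouse, *Pvalb* was lower in SC_SYN than in SC_TH in 12 of 12 mice, and *Sst*, *Vip*, *Cck*, *Tac1*, *Crh*, *Penk* and *Pdyn* were each higher in 12 of 12. *Cort* was higher in 11 of 12 mice and *Npy* in 10 of 12. Without the 4 SC_SYN libraries set apart, all 9 precursors were higher at all 3 ages, by 0.76 to 1.47 at 18m. *Npy* then reached 1.26 (adjusted p = 6.2e-05), and *Pvalb* was lower by -0.67, -0.55 and -0.75 at 3w, 5m and 18m. These 4 libraries were picked from the same data and include the low pair of *Npy*. Its larger value at 18m thus follows from leaving them out and is no separate support. At 18m the count of precursors called higher was 6 without mouse 196 and 6 without mouse 197, with *Tac1* (adjusted p = 0.13 and 0.062) and *Cort* (adjusted p = 0.075 in both) not called.

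These differences were measured on the scale of TMM, which sets the bulk of genes near zero. When libraries were scaled by their totals alone, the median log2 fold change of all genes in SC_SYN against SC_TH at 5m moved from -0.09 to -0.68, and the share of calls that were higher moved from 47.3% to 23.4%. The 9 precursors were then still called higher at 3w and 5m, by 0.77 to 1.58 and 0.55 to 1.39, and *Pvalb* was lower by -1.06 and -1.20. At 18m, however, 4 of 9 were then called higher (*Cck*, *Crh*, *Penk* and *Pdyn*), and *Vip* turned from 0.51 to -0.02 (adjusted p = 0.91). Throughout, shares of all genes called are given for the TMM scale only.

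**Figure D2:**
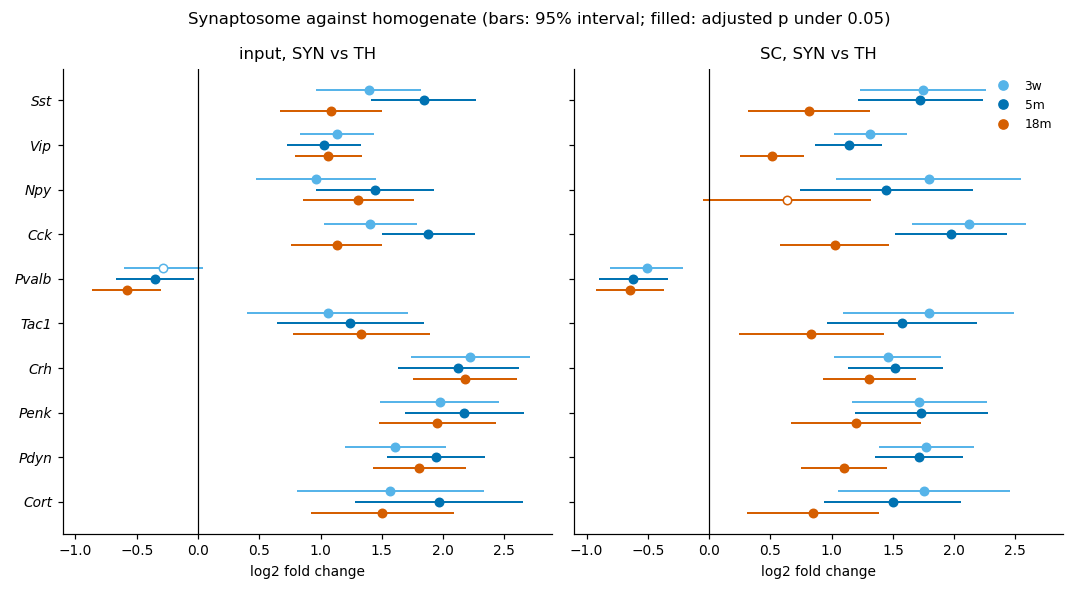
Log2 fold change of SYN against TH (x axis) for each transcript (rows) in input libraries (left) and ribosome pellets (right) at 3w, 5m and 18m; bars give the 95% interval and filled symbols an adjusted p under 0.05. The 9 precursors lie to the right of 0 and *Pvalb* to the left, and in the pellets the 18m values of the precursors lie closest to 0.

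The same separation was present before the sucrose cushion. In the input libraries all 9 precursors were higher in SYN than in TH at all 3 ages, against 31.7%, 32.6% and 32.9% of 17860 genes called higher, with log2 fold changes of 0.96 to 2.22 at 3w, 1.03 to 2.17 at 5m and 1.06 to 2.18 at 18m. *Crh*, the releasing hormone found in a subset of VIP interneurons, went from 1.36, 1.82, 1.47 and 1.82 CPM in input_TH at 5m to 8.44, 5.525, 4.94 and 8.69 CPM in input_SYN, a log2 fold change of 2.12 ± 0.24 (adjusted p = 8.1e-09) without overlap of the groups. *Penk* stood at 77.4, 58.0, 102 and 96.0 CPM in input_TH and at 396, 227, 411 and 464 CPM in input_SYN at the same age. Its log2 fold change was 2.17 ± 0.24 (adjusted p = 3.8e-09), and again the groups did not overlap. *Pvalb* was lower by -0.35 ± 0.16 at 5m (adjusted p = 0.046) and by -0.58 ± 0.14 at 18m (adjusted p = 0.00046), where 40.1% and 39.4% of genes were called lower, and had -0.28 ± 0.16 at 3w (adjusted p = 0.11). The call of *Pvalb* at 5m was lost without mouse 187 (adjusted p = 0.052), 192 (0.054), 193 (0.14) or 194 (0.19). With libraries scaled by their totals, 7 of 9 precursors were called higher at 3w, *Npy* having 0.39 (adjusted p = 0.11) and *Tac1* 0.47 (adjusted p = 0.16).

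Other genes of the peptide pathway were compared in the same way. Of 13 genes for peptide processing and dense core vesicles, 11 were higher and 2 lower in SC_SYN than in SC_TH at 5m, with a median log2 fold change of 1.73. Carboxypeptidase E (*Cpe*), which trims the cut precursors, was higher by 1.88 ± 0.08 (adjusted p = 8.2e-15), the convertase *Pcsk2* by 1.73 ± 0.09 (adjusted p = 6.7e-14) and its chaperone *Scg5* by 1.63 ± 0.11 (adjusted p = 2.1e-12). The 2 lower genes, picked out after their values were seen, were *Cadps* (-0.87) and *Cadps2* (-0.78), cytosolic factors that prime vesicles for release. Of 20 genes for receptors and a binding protein of the peptides, 17 were tested and 15 were higher, none lower, with a median of 1.12. *Crhbp*, the secreted binding protein of CRH, had 1.42 ± 0.13 (adjusted p = 5.9e-10), the receptor *Npy2r* 1.42 ± 0.15 (adjusted p = 6.6e-09) and the somatostatin receptor *Sstr4* 1.27 ± 0.15 (adjusted p = 4.4e-08). With libraries scaled by their totals, 11 processing genes were still higher and 2 lower, and 8 receptor genes were higher and none lower.

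Markers of the interneurons that are not peptides did not follow the precursors as a group. Of 9 genes shared by GABAergic neurons, 2 were higher and 6 lower in SC_SYN at 5m, with a median of -0.69. The vesicular GABA transporter *Slc32a1* was higher (1.41 ± 0.15, adjusted p = 1.5e-08), while the cytosolic GABA-synthesizing enzyme *Gad2* was lower (-0.88 ± 0.11, adjusted p = 6.6e-08). Of 4 genes of the medial lineage, 2 were higher and 1 lower, namely the secreted *Nxph1* (0.84 ± 0.12), the transcription factor *Sox6* (0.27 ± 0.12, adjusted p = 0.0496) and the transcription factor *Lhx6* (-1.02 ± 0.16). Of 4 genes of the caudal lineage, 1 was higher, the receptor channel *Htr3a* (1.03 ± 0.17), and 3 were lower, among them *Adarb2* (-1.41 ± 0.15) and *Prox1* (-0.90 ± 0.16). With libraries scaled by their totals, *Sox6* changed sign to -0.31 and *Nxph1* was no longer called, at 0.25.

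Of 6 genes associated with parvalbumin cells, 4 were higher and 1 lower at 5m, against *Pvalb* itself, which was lower. The synaptic vesicle protein *Syt2* had 1.16 ± 0.09 (adjusted p = 6.3e-11), the potassium channel *Kcnc1* 0.84 ± 0.10 (adjusted p = 6.5e-08) and the secreted *Pthlh* 1.23 ± 0.25 (adjusted p = 0.00013). Of 9 other interneuron markers 6 were higher and 3 lower, with the secreted *Reln* at 2.02 ± 0.14 (adjusted p = 3.8e-12), the membrane protein *Lamp5* at 1.504 ± 0.13 (adjusted p = 1.9e-10) and *Calb1*, a cytosolic calcium-binding protein as *Pvalb* is, at -0.94 ± 0.10 (adjusted p = 8.2e-09).

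The fractions also differed in markers of other cells. In SC_SYN at 5m, 5 of 5 markers each of astrocytes, microglia and oligodendrocytes were higher than in SC_TH, while 4 of 4 endothelial markers, 5 of 5 erythrocyte markers and 6 of 6 nuclear RNAs were lower. The summed level of the astrocyte markers was 839 to 1054 CPM in SC_TH and 2583 to 3070.0 CPM in SC_SYN, and that of the nuclear RNAs was 7412 to 10978 CPM and 1086 to 2294 CPM. Of 9 striatal markers 5 were higher and 2 lower, and of 6 cortical glutamatergic markers 1 was higher and 4 lower. With libraries scaled by their totals the striatal markers turned to 2 higher and 4 lower, 2 of 5 oligodendrocyte and 4 of 5 microglial markers were higher, and the counts of astrocyte, endothelial, erythrocyte and nuclear markers were the same. None of these markers was at 0 in all 4 libraries of any group, and their part in the difference of the precursors was not tested.

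The second comparison asked how the transcripts changed with age, and is given first for the ribosome pellet of the homogenate. *Npy* stood at 15.3, 13.7, 31.3 and 22.0 CPM in SC_TH at 3w (mice 187 to 190), at 39.6, 18.1, 24.1 and 39.5 CPM at 5m and at 38.9, 41.8, 55.6 and 48.4 CPM at 18m. The 18m libraries all lay above the 3w libraries, with the 5m libraries spread across both. *Tac1*, the precursor of substance P, stood at 12.4, 7.26, 10.1 and 6.33 CPM at 3w, at 19.9, 8.76, 14.6 and 19.3 CPM at 5m and at 17.9, 19.9, 26.6 and 29.1 CPM at 18m. *Vip* stood at 13.7, 12.2, 13.6 and 14.04 CPM at 3w, at 16.4, 15.4, 11.8 and 16.4 CPM at 5m and at 22.7, 21.8, 21.4 and 23.5 CPM at 18m, so that its step came after 5m. *Cort* showed no overlap between any of the ages, with 2.37, 2.1, 4.22 and 3.30 CPM at 3w, 5.68, 4.45, 5.10 and 5.86 CPM at 5m and 6.35, 6.71, 7.08 and 7.46 CPM at 18m.

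From 3w to 18m, 8 of the 10 transcripts rose in SC_TH, against 20.3% of 16427 genes. The log2 fold changes were 1.36 ± 0.24 for *Tac1* (adjusted p = 0.00046), 1.17 ± 0.20 for *Cort* (adjusted p = 0.00026), 1.15 ± 0.25 for *Npy* (adjusted p = 0.0018), 0.95 ± 0.15 for *Pdyn* (adjusted p = 0.00016), 0.88 ± 0.15 for *Sst* (adjusted p = 0.00037), 0.81 ± 0.16 for *Cck* (adjusted p = 0.00080), 0.76 ± 0.12 for *Vip* (adjusted p = 0.00014) and 0.70 ± 0.20 for *Penk* (adjusted p = 0.0095). The median over the 10 was 0.85, against 0.0027 over all genes. *Pvalb* had 0.19 ± 0.11 (95% interval -0.03 to 0.41) and *Crh* -0.05 ± 0.20 (-0.47 to 0.36). *Crh* stood at 3.28, 5.16, 3.76 and 5.23 CPM at 3w and at 3.67, 5.12, 3.85 and 3.68 CPM at 18m, with the groups overlapping. All 8 calls held without any 1 mouse, with DESeq2 and with libraries scaled by their totals.

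The rise was less firmly placed within the single steps. From 3w to 5m, 5 of 10 rose in SC_TH, against 9.48% of genes: *Cort* (0.79 ± 0.21), *Tac1* (0.79 ± 0.25), *Pdyn* (0.63 ± 0.15), *Sst* (0.51 ± 0.15) and *Cck* (0.47 ± 0.16). This count depended on single mice, with 1 call without mouse 188 (*Pdyn*, 0.60), 2 without 191, 2 without 194, 3 without 187 and 7 without 192. It was also 1 (*Pdyn*) with all 48 libraries in 1 fit, which share 1 estimate of the spread, and *Sst* (adjusted p = 0.052) and *Cck* (adjusted p = 0.072) were lost with trends in GC content and length removed. From 5m to 18m, *Vip* was called (0.59 ± 0.11, adjusted p = 0.011), against 0.377% of genes called higher, and *Cort* had 0.39 ± 0.16 (adjusted p = 0.22) although its groups did not overlap. Without a filter on low counts, *Sst*, *Npy*, *Cck* and *Tac1* were called at this step as well.

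Other measures moved with age in the same pellets. The summed level of 6 nuclear RNAs in SC_TH was 10356 to 13634 CPM at 3w, 7412 to 10978 CPM at 5m and 5301 to 6313 CPM at 18m, and 5 of 6 fell from 3w to 18m. The summed level of 5 oligodendrocyte markers was 3204 to 3980 CPM at 3w, 1590 to 1784 CPM at 5m and 1671 to 2037 CPM at 18m, and 5 of 5 fell from 3w to 18m. Library totals in SC_TH rose with age as given above. The part of these measures in the rise of the precursors was not tested. For the list counts from 3w to 18m in this paragraph, 20.3% of all genes were called higher, and the share called lower is not given here. Of 9 genes shared by GABAergic neurons, 4 rose and none fell from 3w to 18m, with *Gad1* at 0.83 ± 0.10 (adjusted p = 1.3e-05), *Slc32a1* at 0.59 ± 0.10 (adjusted p = 0.00026) and *Gad2* at 0.45 ± 0.08 (adjusted p = 0.00061). Of the 13 processing genes 4 rose and 1 fell, among them *Pcsk1n* (0.83 ± 0.14, adjusted p = 0.00022), *Scg2* (0.40 ± 0.07, adjusted p = 0.00062) and *Pcsk1*, which fell (-0.44 ± 0.13, adjusted p = 0.012). Of 16 receptor genes tested 5 rose and 1 fell, with *Crhbp* at 0.86 ± 0.14 (adjusted p = 0.00019), *Sstr3* at -0.56 ± 0.12 (adjusted p = 0.0014) and *Oprd1* at 0.41 ± 0.12 (adjusted p = 0.0094).

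**Figure D3:**
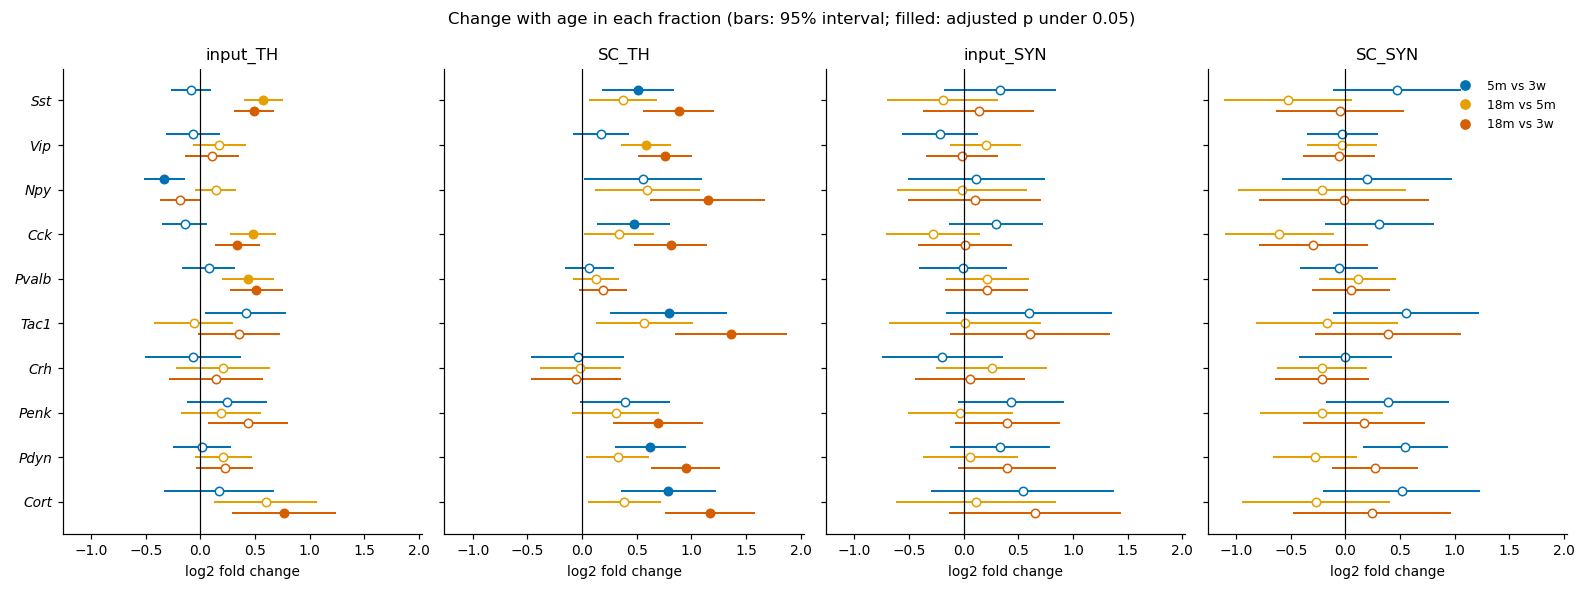
Log2 fold change with age (x axis) of each transcript (rows) in the 4 fractions for 5m against 3w, 18m against 5m and 18m against 3w; bars give the 95% interval and filled symbols an adjusted p under 0.05. In SC_TH 8 of 10 transcripts rose from 3w to 18m, and in both synaptosome fractions no symbol is filled.

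In the RNA of the homogenate itself fewer members were called from 3w to 18m, and *Sst*, *Cck* and *Cort* were called in both fractions. From 3w to 5m *Npy* fell, from 22.9, 24.5, 21.9 and 26.9 CPM to 15.7, 20.7, 19.6 and 20.8 CPM, a log2 fold change of -0.33 ± 0.09 (adjusted p = 0.020), where 7.05% of 18078 genes were called lower. The groups did not overlap, but the call was lost without mouse 190 (adjusted p = 0.075). From 5m to 18m 3 of 10 rose, against 8.18% of genes. *Sst* stood at 93.75, 86.7, 85.1 and 85.9 CPM at 5m and at 115, 161, 118 and 129.9 CPM at 18m, with no overlap and a log2 fold change of 0.58 ± 0.09 (adjusted p = 0.0015). *Cck* rose by 0.48 ± 0.10 (adjusted p = 0.0058) and *Pvalb* by 0.44 ± 0.11 (adjusted p = 0.018), from 25.8, 29.9, 24.7 and 28.7 CPM to 32.2, 45.1, 37.4 and 32.8 CPM. The call of *Pvalb* was lost without mouse 193 (adjusted p = 0.058) or 196 (adjusted p = 0.065). From 3w to 18m *Sst*, *Cck*, *Pvalb* and *Cort* rose, 4 of 10 against 10.4% of genes, by 0.49 ± 0.09, 0.34 ± 0.10, 0.51 ± 0.11 and 0.76 ± 0.23. Without mouse 196, the 18m library highest in *Sst*, *Cck*, *Pvalb* and *Cort* in this fraction, 2 of these calls remained, as *Cck* (adjusted p = 0.077) and *Cort* (adjusted p = 0.070) were lost. *Cck* was also lost without mouse 187 (adjusted p = 0.082), and *Cort* without mouse 187, 188, 190 or 198 (adjusted p from 0.058 to 0.070). With all 48 libraries in 1 fit, of all age calls in input_TH that of *Pvalb* from 3w to 18m alone was kept, and with GC content and length trends removed *Cck* was lost at both steps to 18m (adjusted p = 0.057 and 0.14) and *Cort* from 3w to 18m (adjusted p = 0.079). The age steps within a fraction share their middle group, and were read separately.

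No member was called at any age step in either synaptosome fraction by edgeR with the settings used throughout. At an unadjusted p under 0.05, 1 of 10 passed in SC_SYN from 3w to 5m (3723 of 14240 genes) and 1 from 5m to 18m (2474 genes), and none passed in the other 4 comparisons. *Pdyn* in SC_SYN from 3w to 5m, at 0.55 ± 0.18 (adjusted p = 0.078), was called by DESeq2 (adjusted p = 0.049), without a filter on low counts (adjusted p = 0.041) and with all 48 libraries in 1 fit (adjusted p = 0.020), and 0 to 1 members were called there with a mouse left out. Without a filter on low counts *Tac1* (0.63, adjusted p = 0.030) and *Penk* (0.42, adjusted p = 0.032) were called in input_SYN from 3w to 18m. Over all genes 8.05% were called in SC_SYN from 3w to 5m, 0.014% from 5m to 18m and 9.92% from 3w to 18m, and 3.22%, 0.139% and 4.81% in input_SYN. The intervals were wide: for *Sst* in SC_SYN, 18m against 3w gave -0.05 with a 95% interval of -0.64 to 0.53, and for *Npy* -0.01 with -0.79 to 0.76. Without the 4 SC_SYN libraries set apart no member was called either, at values of -0.17 to 0.52 from 3w to 18m.

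Mice of one age also differed from each other in the synaptosome fractions. *Sst* stood at 455, 189.8, 324 and 371 CPM in SC_SYN at 3w and at 199, 459, 408 and 251 CPM at 18m, with mice 188, 195 and 198 lowest. *Npy* stood at 105, 37.5, 46.4 and 88.9 CPM at 3w and *Cort* at 15.0, 4.52, 8.37 and 12.3 CPM, and mouse 188 was again lowest. In input_SYN at 18m the low libraries were those of mice 195 and 197, with 191 and 152 CPM of *Sst* against 366 and 391 CPM for mice 196 and 198. Mouse 197 was thus low in input_SYN and high in SC_SYN, and mouse 198 the reverse. At 3w and 5m, *Penk*, *Tac1* and *Pdyn* varied by another pattern. Mouse 190 was lowest of the 3w mice and mouse 192 of the 5m mice for *Penk* and *Tac1* in all 4 fractions. *Penk* in SC_SYN stood at 462, 379, 384 and 171 CPM at 3w and at 561, 276, 559 and 484 CPM at 5m. The summed level of 9 striatal markers, which holds none of the 10 transcripts, was also lowest in these mice in all 4 fractions, with 665 CPM in SC_SYN of mouse 190 against 1059 to 1340 CPM in the other 3 mice of that age, and 957 CPM in mouse 192 against 1186 to 1451 CPM. The part of this level in the spread of *Penk*, *Tac1* and *Pdyn* was not tested. *Pdyn* in SC_SYN at 3w was lowest in mouse 188 (53.0 CPM, against 56.7 CPM in mouse 190). At 18m *Tac1* and *Pdyn* were low in the same synaptosome libraries as *Sst*. *Tac1* stood at 19.9, 53.9, 53.0 and 35.6 CPM in SC_SYN and at 22.8, 41.9, 21.3 and 52.3 CPM in input_SYN (mice 195 to 198).

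**Figure D4:**
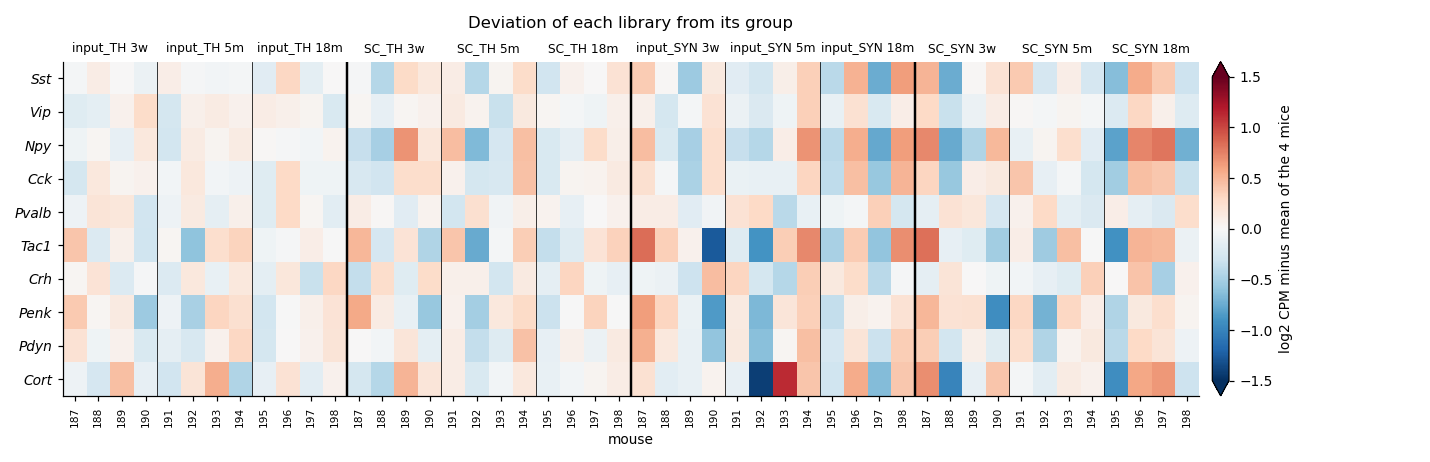
Deviation of each library (columns, by fraction, age and mouse) from the mean of its 4 mice in log2 CPM (colour) for each transcript (rows). The synaptosome fractions show blue cells for *Sst*, *Npy*, *Cck* and *Cort* in mice 188 and 195 of SC_SYN, and *Penk* is blue for mice 190 and 192 throughout.

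Whether the gap between SC_SYN and SC_TH changed with age was tested directly. From 5m to 18m the change was -0.95 ± 0.30 on the log2 scale for *Cck* (adjusted p = 0.16), -0.91 ± 0.34 for *Sst* (adjusted p = 0.20), -0.62 ± 0.18 for *Vip* (adjusted p = 0.13) and -0.21 ± 0.26 for *Crh* (adjusted p = 0.71), and no member passed. At an unadjusted p under 0.05, 4 of 10 passed, as did 2855 of 16630 genes, and 0.0% of all genes were called after adjustment. DESeq2 called *Vip* (-0.61, adjusted p = 0.049), and with the mouse as a block no member was called, the smallest adjusted p being 0.14. Without the 4 SC_SYN libraries set apart the values were -0.57 for *Cck*, -0.50 for *Sst* and -0.45 for *Vip*, and none was called. From 3w to 5m the values ran from -0.34 to 0.06, and none passed at an unadjusted p under 0.05 or by DESeq2, with 0.0301% of all genes called. Without the 4 libraries the values at this step ran from -0.78 (*Npy*) to 0.19 (*Crh*), and none was called.

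In the input libraries the change of the gap between SYN and TH from 5m to 18m was -0.75 ± 0.29 for *Sst* (adjusted p = 0.16) and -0.75 ± 0.25 for *Cck* (adjusted p = 0.11), where 2.42% of genes were called. With the mouse as a block, which uses that the libraries of a mouse come from the same animal, both were called, at -0.83 ± 0.21 (adjusted p = 0.027) and -0.81 ± 0.20 (adjusted p = 0.024). At an unadjusted p under 0.05 these 2 of 10 passed, a share near that of all genes (3168 of 17860). DESeq2 called *Cck* alone (adjusted p = 0.047), and both were called without a filter on low counts. From 3w to 5m none passed by either measure, with 0.0224% of genes called.

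The third comparison set the level of each transcript in the ribosome pellet against that in its input. Both levels are relative to the other genes of a library, so that the ratio does not give the share of a transcript that pelleted. In the homogenate, 3 members were higher in SC_TH than in input_TH at 3w, 8 at 5m and 9 at 18m, against 26.1%, 29.9% and 31.3% of 18416 genes. *Crh* had the highest value at 3w and 5m, with 1.71, 1.95, 1.41 and 1.65 CPM in input_TH and 3.28, 5.16, 3.76 and 5.23 CPM in SC_TH at 3w, a log2 fold change of 1.35 ± 0.21 (adjusted p = 5.0e-06), and the values were 1.35 ± 0.19 at 5m and 1.13 ± 0.18 at 18m. *Pvalb* was higher at 3w (0.45 ± 0.12, adjusted p = 0.0027, or 0.057 with GC content and length trends removed) and 5m (0.42 ± 0.11, adjusted p = 0.0023) and had 0.11 ± 0.11 at 18m (adjusted p = 0.37). *Sst* had 0.18 ± 0.14 at 3w (adjusted p = 0.29), 0.76 ± 0.13 at 5m and 0.55 ± 0.13 at 18m, and *Npy* had -0.17 ± 0.21 (adjusted p = 0.53), 0.69 ± 0.20 and 1.15 ± 0.19. *Vip* and *Tac1* were called at 18m, at 0.61 ± 0.11 and 0.73 ± 0.20, and not at the younger ages.

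The change of this ratio from 3w to 5m was 0.86 ± 0.29 for *Npy* (adjusted p = 0.089), 0.59 ± 0.20 for *Cck* (0.091), 0.59 ± 0.21 for *Pdyn* (0.11) and 0.58 ± 0.19 for *Sst* (0.084), and none passed, where 2.33% of genes were called. At an unadjusted p under 0.05 these 4 of 10 passed, as did 4027 of 18416 genes. With the mouse as a block *Pdyn* was called (0.59 ± 0.14, adjusted p = 0.029), with DESeq2 *Sst* (adjusted p = 0.042) and *Cck* (adjusted p = 0.049), and without a filter on low counts all 4. From 5m to 18m, where 1.78% of genes were called, the block called *Tac1* (0.64 ± 0.16, adjusted p = 0.047), which had 0.63 ± 0.29 without it (adjusted p = 0.27), and 2 of 10 passed at an unadjusted p under 0.05 (3137 of 18416 genes) and none by DESeq2.

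In synaptosomes few members were called between the pellet and its input, although all 10 values were above 0 at 3w and at 5m, with medians of 0.45 and 0.50. *Cck* was higher in SC_SYN than in input_SYN at 3w (0.70 ± 0.24, adjusted p = 0.042) and at 5m (0.71 ± 0.24, adjusted p = 0.036), and *Crh* at 5m (0.70 ± 0.22, adjusted p = 0.028). That is 1 and 2 of 10 members against 9.04% and 9.66% of 14301 genes called higher, shares close to the background. At 18m none was called by edgeR or DESeq2, none passed at an unadjusted p under 0.05, and 12.6% of all genes were called. These 3 calls were lost without mouse 192 and without mouse 193. *Cck* was also lost at 3w without mouse 187, 189 or 190 and at 5m without mouse 191, and *Crh* at 5m without mouse 194 or with GC content and length trends removed (adjusted p = 0.054). With the mouse as a block 5 were called, as *Penk* was added at 3w (0.35, adjusted p = 0.021) and 5m (0.29, adjusted p = 0.044). Without the 4 SC_SYN libraries set apart 8 were called: *Cck*, *Npy* and *Cort* at 3w, *Cck*, *Crh* and *Npy* at 5m, and *Cck* and *Npy* at 18m. The libraries left out held the lowest values of *Cck*, *Npy* and *Cort* in SC_SYN at 3w and 18m. Shares of all genes called in these 2 alternative fits are not given here, so the counts of 5 and 8 cannot be set against a background. The age changes of this ratio ran from -0.05 to 0.21 from 3w to 5m and from -0.47 to -0.11 from 5m to 18m, none passed at an unadjusted p under 0.05 or by DESeq2, and 0.0% of genes were called at both steps. Without the 4 libraries none was called either, with values from -0.48 (*Cort*) to 0.28 (*Crh*) and from -0.52 (*Crh*) to 0.32 (*Npy*).

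**Figure D5:**
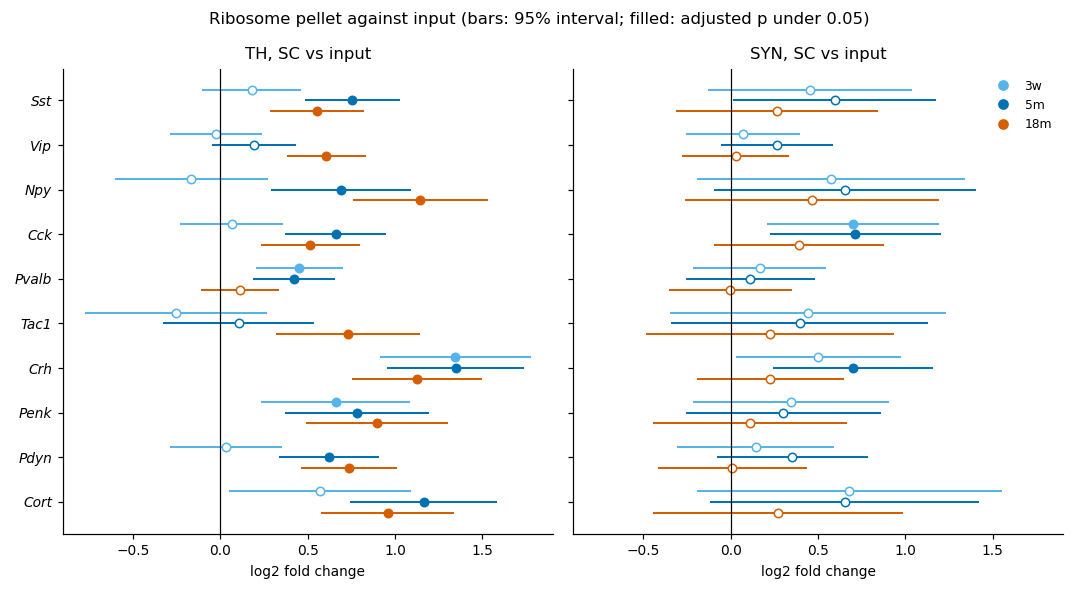
Log2 fold change of the ribosome pellet against its input (x axis) for each transcript (rows) in homogenate (left) and synaptosomes (right) at 3w, 5m and 18m; bars give the 95% interval and filled symbols an adjusted p under 0.05. In TH the filled symbols increase from 3 at 3w to 9 at 18m, and in SYN 3 are filled in all.

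As a description of the whole pattern, each member was compared with 13344 genes over the means of the 12 groups in log2 CPM. These groups share mice, scaling and the difference between SYN and TH. The most similar genes were *Plpp7* and *Yif1b* for *Sst* (Pearson r = 0.993 and 0.993), *Kcns1* and *Adgrg1* for *Vip* (0.985 and 0.985), *Yif1b* and *Hpcal4* for *Npy* (0.979 and 0.977), and *Sst* itself and *Plpp7* for *Cck* (0.992 and 0.992). They were *Serpina3n* and *Cyp2d22* for *Tac1* (0.988 and 0.986), *Scp2-ps2* and *Yipf3* for *Crh* (0.995 and 0.995), *Cxcl14* for *Penk* (0.993) and *Abcg1* and *Cntfr* for *Cort* (0.982 and 0.982). For *Pvalb*, *Gne* and *Fam84a* were closest, with 0.968 and 0.946.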

How the data were processed

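RNA of 48 libraries (12 mice, 4 fractions) was measured. The deposited values are raw counts per gene: per the labels and the study's methods, the authors prepared directional, rRNA-depleted libraries with UMI adaptors, sequenced them in pooled runs that the labels do not assign to libraries, mapped them to GRCm38 with TopHat2 2.1 and counted reads with featureCounts without using strand. Whether UMIs were collapsed is not given in the sources used here. Identifiers were matched to GENCODE M21 (48144 of 48526; the rest held 0.0596% of counts).

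From these counts, edgeR 4.0.16 (R 4.3.3; quasi-likelihood test, TMM, filterByExpr, two-sided) was fitted over the 12 libraries of a fraction for age steps and over 24 libraries for pairs of fractions, with p-values adjusted over all genes tested (Benjamini-Hochberg) and called under 0.05. Levels are TMM-scaled CPM, in log2 with a prior count of 2. All 10 members are named; of 15 other lists at most 3 genes with the smallest adjusted p are named, and exceptions are marked. Some genes that this rule names, and the most similar genes of some members, are not reported here. The members and lists were chosen with earlier results of these data known. Library totals of 1780267 to 18590040 counts limit the precision. The variance between replicates was 1.98 to 32.2 times the counting error over 72 pairs, so no replicate pair agreed within sampling noise. The fits within SC_SYN, of SC_SYN against SC_TH and of SC_SYN against input_SYN were first tested on simulated counts with known changes between groups. The other fits, among them the age steps within SC_TH, changes of a gap or ratio with age, and DESeq2 were not simulated. The simulated counts had the same set spread for all genes, not that of the real libraries, and held no effect of the mouse. By the labels the 4 libraries of a mouse come from the same animal, whereas their deviations correlated little (median r = 0.076, range -0.37 to 0.36). The lowest values were those of input_SYN with SC_SYN in mice 197 (-0.37) and 198 (-0.34), against 0.21 and 0.36 in mice 195 and 196. Whether these libraries are assigned to the right mouse was not tested. The mouse was used as a block, as labelled, in an alternative fit. Alternatives were DESeq2 1.42.0, totals in place of TMM, other filters, all libraries in 1 fit, the 8 libraries compared, mitochondrial genes removed, each mouse left out and, added after the data were seen, GC content and length trends removed and the SC_SYN libraries set apart left out.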

Additional observations from a re-analysis of the deposited data

Results flagged for a closer look

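Among 120 groups of 4 libraries (10 transcripts in 12 groups), 5 held a library far from the other 3 by Dixon's test at the 95% level, for which chance flags about 1 in 20 groups. *Vip* in input_TH at 5m was 10.8 CPM in mouse 191 against 13.7 to 14.2 CPM in the other mice, a gap of 0.844 of the group's range. *Cck* in input_TH at 5m was 142.9 CPM in mouse 192 against 121.5 to 124.2 CPM (0.873 of the range). *Cck* in input_SYN at 5m was 584 CPM in mouse 194 against 429.6 to 433.6 CPM (0.974 of the range). *Crh* in SC_TH at 5m was 3.34 CPM in mouse 193 against 4.31 to 4.50 CPM (0.837 of the range), and at 18m it was 5.12 CPM in mouse 196 against 3.67 to 3.85 CPM (0.878 of the range).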

How the results depend on the processing

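Over 103 called member values and 2089 refits of them, 2010 kept their direction and call, 78 kept the direction and lost the call, and 1 reversed. The reversed value was *Vip* in SC_SYN against SC_TH at 18m, at -0.018 with library totals in place of TMM, a change of scale that moves all genes. Many of the refits left out a mouse of an age outside the comparison. Such a refit keeps the compared libraries, and the count of 2010 therefore overstates how firm the calls are. Calls from 3w to 5m, 6 in all, were 2 with all 48 libraries in 1 fit, 3 with only the 8 libraries compared, and 2 to 10 with a mouse left out. Calls from 5m to 18m, 4 in all, were 8 without a filter on low counts, 1 with all 48 libraries in 1 fit, and 3 to 5 with a mouse left out. Calls from 3w to 18m (12) ranged from 10 to 13 with a mouse left out, those of SC_SYN against SC_TH (29) from 27 to 29, those of input_SYN against input_TH (29) from 28 to 29 and those of SC_TH against input_TH (20) from 19 to 22. Calls of SC_SYN against input_SYN (3) were 5 with the mouse as a replicate block, 8 without the SC_SYN libraries set apart, and 0 to 3 with a mouse left out. Age changes of the SYN to TH gap (0 called) gave 2 with DESeq2, 2 without a filter, 2 with the mouse as a replicate block and 0 to 1 with a mouse left out. Age changes of the SC to input ratio (0 called) gave 2 with DESeq2, 4 without a filter, 2 with the replicate block and 0 to 3 with a mouse left out. The block took away none of the 81 calls it could test. Apart from these, the cause of a lost call was not tested. Counts as low as 6 (*Cort*) and the 4 mice per age limit what the age comparisons can show.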

Other observations

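Over the protein-coding genes tested, those with at least 40% of the first 25 codons having T as the middle base, as 8 of the 10 transcripts do, were called higher in SC_SYN than in SC_TH at 5m more often than the rest: 1602 of 2536 (63.2%), with a median log2 fold change of 0.84, against 3238 of 11031 (29.4%), with a median of -0.15. In the input libraries at the same age the shares were 54.4% and 29.6%. For the change in SC_TH from 3w to 18m they were 24.6% and 23.1%, with medians of 0.066 and 0.054. The cut of 40% equals the share in *Sst* and *Penk*, the lowest among those 8, and the 8 are among the genes counted. These are descriptions over genes, which are not independent of each other, and no test was made.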
